A study of Mus musculus with 8 samples.

Results

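The TGF-β ligands and their latent binding proteins are 7 genes, chosen by name from the table of read counts, where they are listed as TGFB1, TGFB2, TGFB3, LTBP1, LTBP2, LTBP3 and LTBP4. They make up 7 of the 13937 genes of that table, 3 ligands and 4 latent binding proteins, and all 7 passed the filter on low counts that left 13509 genes for testing. Their counts were compared in primary astrocytes grown from the brains of C57BL/6 mouse pups at postnatal day 1, from wild-type (WT) animals and from animals without RGC-32, the product of Rgcc and a partner of the TGF-β signal transducer SMAD3 (RGC-32 KO). After an overnight serum starvation, cultures were left untreated (WT control, RGC-32 KO control) or received TGF-β at 10 ng/ml for 24 h (WT TGF-β, RGC-32 KO TGF-β), with 2 biological replicates in each of the 4 groups and 8 libraries in all. The meninges had been taken off before plating, and loosely attached cells were shaken off. How many pups stood behind each culture, and how the deletion was made, are not given in the sources used here. The comparisons ask whether astrocytes given TGF-β change their own supply of ligand and of the proteins that store it, and whether RGC-32 alters that supply.

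The ligands TGF-β1, TGF-β2 and TGF-β3 are made as precursors whose propeptide, the latency-associated peptide, stays bound to the growth factor after cleavage and keeps it inactive. Most cells secrete this latent complex joined to a latent TGF-β binding protein (LTBP), a large protein of the fibrillin family that places it in the extracellular matrix, where integrins or proteases can release the active ligand. LTBP1, LTBP3 and LTBP4 can bind the latent complex, whereas LTBP2 does not bind it and is known as a component of elastic and microfibrillar matrix. In the brain, astrocytes and microglia are both sources of TGF-β, and the pathway is known for its part in glial scar formation.

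The genes lie at 7 loci of the mouse genome (GRCm38 coordinates, GENCODE M21). Tgfb1 spans chr7:25687002-25705077 on the plus strand, Tgfb2 chr1:186622792-186705989 on the minus strand and Tgfb3 chr12:86056745-86079041 on the minus strand. Ltbp1 spans chr17:75005568-75392512 on the plus strand, Ltbp2 chr12:84783212-84876532 on the minus strand, Ltbp3 chr19:5740904-5758532 on the plus strand and Ltbp4 chr7:27305136-27337692 on the minus strand. Tgfb1 and Ltbp4 thus share chromosome 7, and Tgfb3 and Ltbp2 share chromosome 12.

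The promoters of 5 of the genes are shown because these genes carry the responses described below, namely Tgfb1, which rose, Tgfb2, which was lower, and the 3 LTBPs that rose. Each is the 250 bases before the start of the gene in RefSeq (GRCm38.p6), read 5′ to 3′ on the strand of the gene, at chr7:25686752-25687001 for Tgfb1, chr1:186705990-186706239 for Tgfb2, chr17:75005279-75005528 for the upstream of 2 Ltbp1 starts, chr12:84876492-84876741 for Ltbp2 and chr19:5740650-5740899 for Ltbp3. Capitals mark matches, on either strand, to the SMAD-binding letters CAGAC, the AP-1 letters TGAGTCA, the cyclic AMP response element TGACGTCA, the GC box GGGCGG and the TATA box TATAAA.
Tgfb1: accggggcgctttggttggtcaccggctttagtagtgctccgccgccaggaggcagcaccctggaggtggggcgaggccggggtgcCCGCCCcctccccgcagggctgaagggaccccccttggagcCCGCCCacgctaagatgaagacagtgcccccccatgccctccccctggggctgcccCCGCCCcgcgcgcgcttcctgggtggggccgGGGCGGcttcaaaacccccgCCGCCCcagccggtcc
Tgfb2: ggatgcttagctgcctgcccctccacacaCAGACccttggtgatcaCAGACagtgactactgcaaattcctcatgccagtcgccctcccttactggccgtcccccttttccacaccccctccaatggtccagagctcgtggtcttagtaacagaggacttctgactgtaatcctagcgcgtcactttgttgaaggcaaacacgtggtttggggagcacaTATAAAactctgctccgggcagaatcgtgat
Ltbp1: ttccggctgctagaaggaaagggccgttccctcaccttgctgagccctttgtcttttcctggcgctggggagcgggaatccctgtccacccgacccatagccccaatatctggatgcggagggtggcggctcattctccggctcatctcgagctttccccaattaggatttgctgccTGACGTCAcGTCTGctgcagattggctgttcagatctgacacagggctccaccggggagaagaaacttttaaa
Ltbp2: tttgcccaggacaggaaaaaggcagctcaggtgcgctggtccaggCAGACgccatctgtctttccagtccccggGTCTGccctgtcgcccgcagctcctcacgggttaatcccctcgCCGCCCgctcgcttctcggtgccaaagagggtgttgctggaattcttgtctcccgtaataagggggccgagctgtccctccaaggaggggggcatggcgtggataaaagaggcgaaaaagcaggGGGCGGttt
Ltbp3: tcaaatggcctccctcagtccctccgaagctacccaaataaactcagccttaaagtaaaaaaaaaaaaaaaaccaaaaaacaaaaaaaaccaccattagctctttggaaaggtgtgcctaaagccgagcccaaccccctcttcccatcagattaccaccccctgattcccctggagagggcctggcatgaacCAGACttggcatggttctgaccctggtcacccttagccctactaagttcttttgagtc

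These letters differed between the promoters. Tgfb1 held 5 GC boxes and no TATA box in a sequence of 75.2% G and C, whereas Tgfb2 held a TATA box at position -31 from the start, CAGAC at -221 and -204, and no GC box. Ltbp2 held CAGAC in both orientations, at -205 and -176, with 2 GC boxes, and Ltbp3 held a single CAGAC at -58. The Ltbp1 promoter held the cyclic AMP response element at -73 and CAGAC on the opposite strand at -64, and the second Ltbp1 start, which gives the shorter form of the protein, had 2 CAGAC matches in its own 250 bases. None of the matches in the 5 printed promoters overlapped another motif, and the AP-1 letters were in none of them. CAGAC is short and was in 42.2% of the 32817 mouse promoters searched, the GC box in 32.7%, the TATA box in 12.4%, the AP-1 letters in 4.46% and the cyclic AMP response element in 1.55%. The 3 Ltbp4 starts had 3, 5 and 7 GC boxes and none of the other motifs. The last 2 of these promoters, at chr7:27333649-27333898 and chr7:27333664-27333913, overlap and share GC boxes. Some of their GC box matches also overlap one another. No promoter entry was used for Tgfb3.

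Total counts ran from 14920561 to 18956038 per library, and every library held at least 277 reads for each of the 7 genes. The 2 libraries of a group were further apart than read sampling allows (chi-square divided by its degrees of freedom, 6.26 to 10.4). Rgcc had 80 and 94 reads in the untreated WT libraries and 215 and 362 with TGF-β. In the RGC-32 KO libraries it had 61 and 28 reads untreated and 64 and 26 with TGF-β, so reads of the deleted gene were fewer but not absent in the RGC-32 KO libraries. Levels are given as CPM (reads of a gene scaled to a fixed total after TMM normalization), which compare libraries, or as FPKM, which also divide by transcript length and so compare genes. A gene was said to have risen or fallen where its log2 fold change was at least 0.6 in size and its adjusted p was under 0.05 in edgeR's quasi-likelihood test across all genes, with the standard error (SE) of the fold change given beside it. With 2 libraries a group, a permutation test of a single gene cannot give a p below 0.333, and the p-values rest on the spread shared across genes.

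In WT astrocytes, TGF-β raised 4 of the 7 genes, the ligand Tgfb1 and the binding proteins Ltbp1, Ltbp2 and Ltbp3, and none fell past the threshold. Over all genes tested, 7.72% rose and 5.65% fell by the same rule. At an adjusted p under 0.05 with no limit on the fold, 4 of the 7 were higher and 2, Tgfb2 and Tgfb3, were lower, against 18.6% and 14.3% of all genes. The 2 TGF-β libraries lay above both controls for 5 of the 7 genes and below both for the other 2, against 35.4% and 33.7% of all genes. The median log2 fold change of the 7 genes was 0.86, beside -0.0048 over all genes.

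In RGC-32 KO astrocytes the count was also 4 of 7 up, with the same genes, against 6.61% of all genes, and none down, against 4.93%. At any fold, 4 were higher and 2 lower at an adjusted p under 0.05, where all genes gave 16.6% and 11.8%. The TGF-β libraries were above both controls for 5 genes and below for 2, where all genes gave 34.3% and 32.9%. The median of the 7 was 0.76, beside 0.0031 over all genes. The plot of levels by library shows these groups gene by gene.

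**Figure D1:**
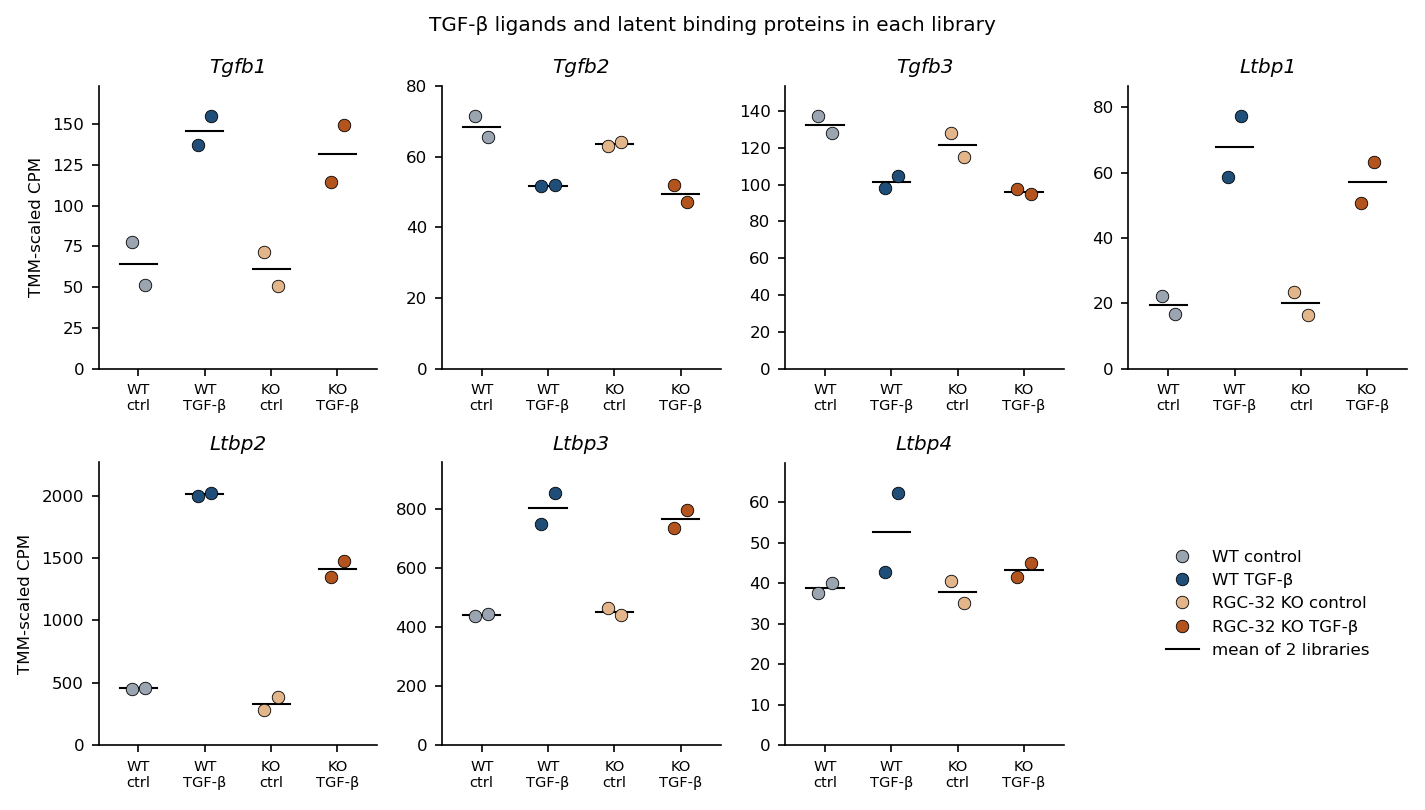
Levels of the 7 genes in each of the 8 libraries, as CPM after TMM scaling on axes that start at 0, with 1 point per library and a bar at the mean of the 2 libraries of a group. Tgfb1, Ltbp1, Ltbp2 and Ltbp3 were higher with TGF-β in both genotypes, Tgfb2 and Tgfb3 were lower, and 1 of the 2 WT TGF-β libraries stood above all others for Ltbp4.

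Tgfb1, the ligand best known from immune and scar-forming cells, was the only ligand to rise. It had 77.5 and 51.3 CPM in the WT control libraries and 137 and 155 CPM in WT TGF-β. Among RGC-32 KO libraries it had 71.5 and 50.4 CPM without TGF-β and 114 and 149 CPM with it. The controls and the TGF-β libraries did not overlap in either genotype, although the controls of each genotype differed among themselves by more than those of Tgfb2 or Tgfb3. The log2 fold change was 1.18 in WT (SE 0.227, adjusted p = 0.00648 by edgeR) and 1.11 for the RGC-32 KO cells (SE 0.228, adjusted p = 0.00994). In RGC-32 KO the call was lost without control replicate 2 (log2 0.88, adjusted p = 0.0640) and without TGF-β replicate 2 (log2 0.89, adjusted p = 0.0650).

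RNA of microglia, which also make Tgfb1, was present in these cultures. All 12 microglial marker genes were tested, and their summed level was 1358 to 1662 CPM in WT control against 1224 to 1610 with TGF-β, and in RGC-32 KO 1449 to 1609 CPM in control against 1249 to 1397 with TGF-β. Of the 12, Tmem119 alone rose, in WT by 0.99 on the log2 scale (adjusted p = 0.00136 by edgeR) and in RGC-32 KO by 0.68 (adjusted p = 0.00800), and none fell. In RGC-32 KO that call was lost under upper quartile normalization, on FPKM and without control replicate 2 or TGF-β replicate 2. Cd68 had -0.60 in WT and -0.64 in RGC-32 KO and was called lower under 7 and 9 of 19 alternatives, DESeq2 among them. The part of microglia in the Tgfb1 values was not tested. In bulk RNA, fewer cells of a type and less RNA per cell cannot be told apart.

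Tgfb2 and Tgfb3, the ligands best known from development and from neural tissue, were lower with TGF-β by amounts under the fold limit. Tgfb2 had 71.4 and 65.7 CPM in WT control and 51.6 and 52.0 CPM in WT TGF-β. The RGC-32 KO libraries had 63.1 and 64.2 CPM without TGF-β and 52.0 and 47.1 CPM with it. Every TGF-β library thus lay below every control library, and the log2 fold change was -0.40 in WT (SE 0.0694, adjusted p = 0.00414 by edgeR) and -0.36 for the RGC-32 KO cells (SE 0.0701, adjusted p = 0.00801). Tgfb3 had 137 and 128 CPM in WT control and 98.0 and 105 CPM in WT TGF-β. In the KO it had 128 and 115 CPM without TGF-β and 97.5 and 94.9 CPM with it. Its groups did not overlap either, and its log2 fold change was -0.39 in WT (SE 0.0715, adjusted p = 0.00544 by edgeR) and -0.34 for the RGC-32 KO cells (SE 0.0719, adjusted p = 0.0114). In RGC-32 KO the adjusted p was 0.0565 for Tgfb2 and 0.0693 for Tgfb3 without TGF-β replicate 2, and 0.0569 for Tgfb3 without TGF-β replicate 1.

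The make-up of the ligand transcripts therefore differed between control and TGF-β cultures more than their sum did. In FPKM, Tgfb1 was 31.4% to 38.8% of the summed ligands in the 4 control libraries and 58.5% to 63.8% in the 4 TGF-β libraries. Tgfb3 was 44.9% to 50.6% in controls and 26.5% to 29.9% with TGF-β, and Tgfb2 was 15.4% to 18.7% and 9.48% to 11.7%. The order of the first and second ligand was thus reversed, from Tgfb3 above Tgfb1 in all 4 controls, at a Tgfb1 to Tgfb3 ratio of 0.621 to 0.863, to Tgfb1 above Tgfb3 in all 4 TGF-β libraries, at a ratio of 1.96 to 2.41. The summed ligand level was 65.7 and 80.9 FPKM in WT control against 83.4 and 88.8 in WT TGF-β, and 64.4 and 73.7 against 76.8 and 83.3 in RGC-32 KO. The gap between the highest control and the lowest TGF-β library was small beside the spread between controls.

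Ltbp2, the LTBP that does not hold latent TGF-β, had the largest rise of the 7 genes. It had 452 and 455 CPM in WT control and 1996 and 2022 CPM in WT TGF-β. Among the RGC-32 KO libraries it had 278 and 385 CPM without TGF-β and 1350 and 1476 CPM with it. All 4 TGF-β libraries were far above the controls, and the 2 RGC-32 KO control libraries differed more than the WT ones. The fold change was 4.43 in WT (log2 2.15, SE 0.142, adjusted p = 0.000124 by edgeR) and 4.26 in RGC-32 KO (log2 2.09, SE 0.142, adjusted p = 0.000160). In WT 1.04% of all genes had a higher log2 fold change.

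Ltbp1, the LTBP in which binding of latent TGF-β was first worked out, rose from the lowest level per length of the family. It had 22.1 and 16.6 CPM in WT control and 58.7 and 77.2 CPM in WT TGF-β. The KO libraries had 23.5 and 16.4 CPM without TGF-β and 50.7 and 63.4 CPM with it. The groups did not overlap, and the fold change was 3.52 in WT (log2 1.82, SE 0.217, adjusted p = 0.000920 by edgeR) and 2.86 in RGC-32 KO (log2 1.52, SE 0.218, adjusted p = 0.00237). Counts per gene do not tell the longer from the shorter Ltbp1 transcript.

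Ltbp3, best known for its part in bone development, rose from a level that was already high. It had 439 and 445 CPM in WT control and 748 and 855 CPM in WT TGF-β. Among the RGC-32 KO libraries the level was 464 and 439 CPM without TGF-β and 735 and 796 CPM with it. Its controls lay close together in both genotypes, and the fold change was 1.81 in WT (log2 0.86, SE 0.0839, adjusted p = 0.000409 by edgeR) and 1.70 in RGC-32 KO (log2 0.76, SE 0.0838, adjusted p = 0.000802). On FPKM the RGC-32 KO value was 0.59 or 0.60 with a pseudocount of 1 or 0.1, just under the fold limit.

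Ltbp4, which takes part in elastic fibre assembly, did not pass the test in either genotype. It had 37.5 and 40.05 CPM in WT control and 42.7 and 62.3 CPM in WT TGF-β. The RGC-32 KO libraries had 40.6 and 35.1 CPM without TGF-β and 41.4 and 44.9 CPM with it. The TGF-β libraries lay above the controls, by a wide margin in WT TGF-β replicate 2 and by small margins in the others. The log2 fold change was 0.43 in WT (SE 0.162, adjusted p = 0.0754 by edgeR) and 0.19 for the RGC-32 KO cells (SE 0.165, adjusted p = 0.421). The WT value rested on 1 library, being 0.12 (adjusted p = 0.499) without TGF-β replicate 2 and 0.69 (adjusted p = 0.00614) without TGF-β replicate 1.

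**Figure D2:**
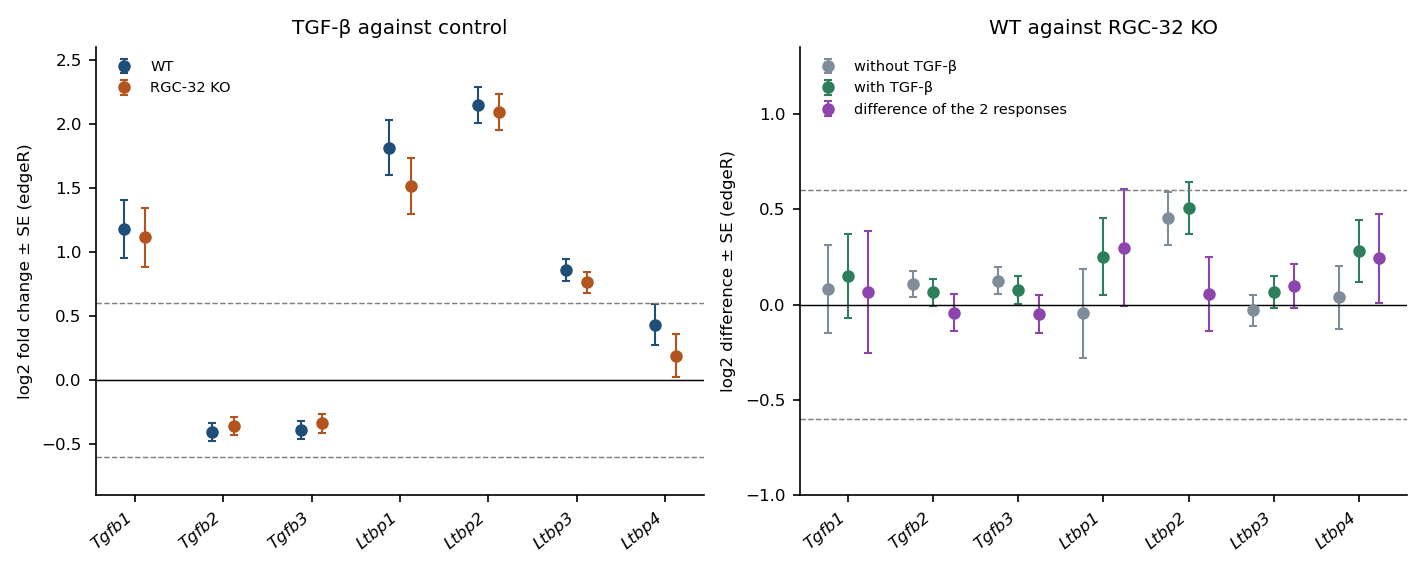
Log2 fold changes with their SE from edgeR for the 7 genes, for TGF-β against control in each genotype on the left, and on the right for WT against RGC-32 KO in each condition and for the WT minus RGC-32 KO difference of the 2 TGF-β responses. Dashed lines stand at a log2 of 0.6 in either direction; on the left 4 genes lie beyond the upper line in both genotypes, and on the right none does.

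Per length, the LTBPs differed widely in level. In WT control the mean FPKM was 57.99 for Ltbp3, 49.8 for Ltbp2, 34.8 for Tgfb3, 26.0 for Tgfb1, 12.5 for Tgfb2, 5.76 for Ltbp4 and 2.15 for Ltbp1, and no neighbours in this order overlapped. RGC-32 KO control had the same order, with Ltbp2 (37.1) and Tgfb3 (32.3) overlapping. In WT TGF-β the mean FPKM was 189 for Ltbp2, 95.8 for Ltbp3, 54.2 for Tgfb1, 23.6 for Tgfb3, 8.31 for Tgfb2, 7.25 for Ltbp1 and 7.06 for Ltbp4, of which the last 2 overlapped. RGC-32 KO TGF-β had that order too, from 136 for Ltbp2 to 5.67 for Ltbp4. Ltbp2 and Ltbp3, and Tgfb1 and Tgfb3, thus each changed places between control and TGF-β in both genotypes, while Ltbp1 went from below Ltbp4 to above it in RGC-32 KO and to an overlap with it in WT.

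The summed LTBP transcripts were 100 to 116 FPKM in the 4 control libraries and 233 to 305 FPKM in the 4 TGF-β libraries. Ltbp2 made up 31.7% to 44.6% of the sum in controls and 55.9% to 65.1% with TGF-β, and Ltbp3 48.7% to 59.8% and 30.7% to 38.9%. Ltbp1 was 1.63% to 2.79% of the sum in all libraries, and Ltbp4 was 2.03% to 5.72%. Among the 3 LTBPs that can bind latent TGF-β, the summed FPKM per FPKM of ligand was 0.793 to 1.04 in controls and 1.24 to 1.33 with TGF-β. These are ratios of transcripts and not of proteins. The stacked plot of FPKM shows that the LTBP sum grew mainly through Ltbp2.

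**Figure D3:**
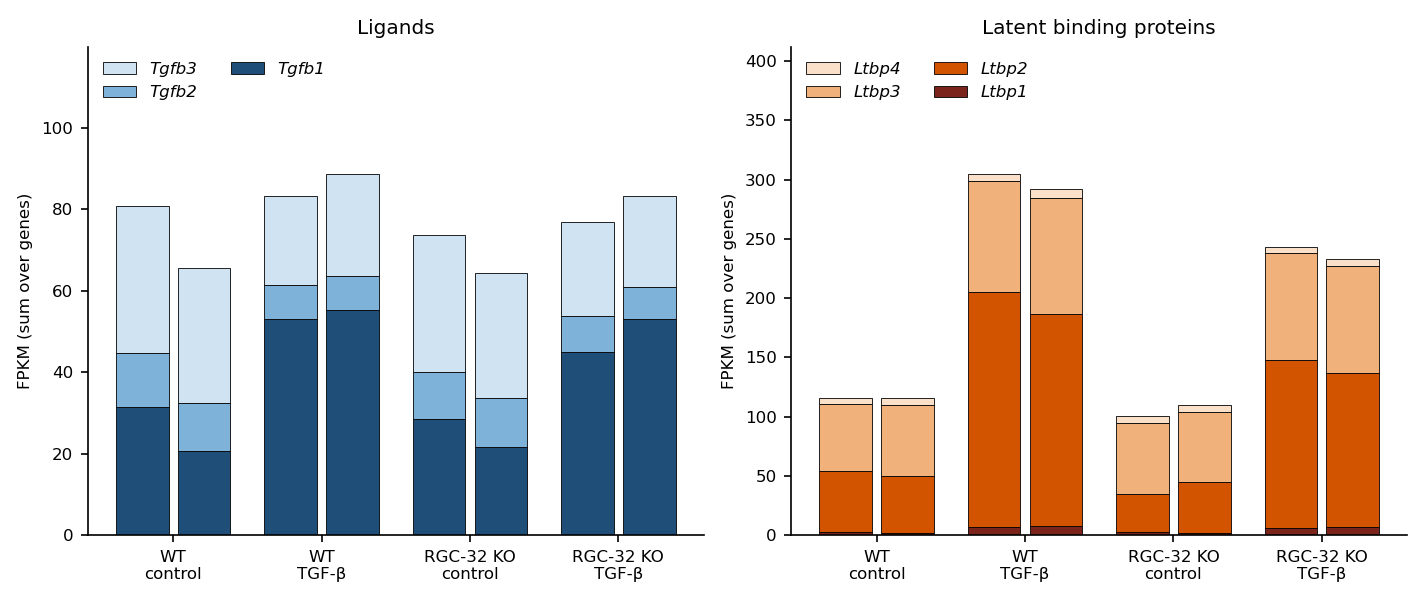
Summed FPKM of the 3 ligands on the left and the 4 latent binding proteins on the right, with 1 bar per library, replicates 1 and 2 in that order within each group and axes from 0. Tgfb1 took the larger part of the ligand sum only in the TGF-β libraries, and the LTBP sum went from 100 to 116 FPKM in controls to 233 to 305 FPKM with TGF-β.

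LTBPs are also products of fibroblasts, and some meningeal fibroblast markers were higher with TGF-β while others were lower. Of 12 such markers 11 were tested, and 4 rose in WT (Col1a1, Col1a2, Pdgfrb and Aldh1a2) while Ogn fell. In RGC-32 KO the same 4 rose and none fell. In WT the log2 value was -0.60 for Islr, which was called lower under 11 of 19 alternatives, -0.42 for Foxc1, -0.32 for Lum and -0.28 for Twist1, and these 4 and Ogn were below 0 in RGC-32 KO too. The summed marker level was 5529 to 6954 CPM in WT control against 10282 to 11768 with TGF-β, and in RGC-32 KO 4669 to 4805 CPM in control against 8041 to 8054 with TGF-β. Slc6a13, a marker of meningeal fibroblasts, had at most 20 reads in any library and Lum at most 85. The other markers had more, with a highest count of 476 for Twist1, 910 for Aldh1a2, 2367 for Islr and 2748 for Foxc1. That count was 4300 for Pdgfrb, 7365 for Ogn, 24294 for Col3a1, 24728 for Igf2, 57170 for Col1a2 and 72362 for Col1a1. Col1a1 and Col1a2, which hold most of the sum's difference, are also general matrix genes. Of 6 mural cell markers, Kcnj8 had no counts here and at most 0.205 FPKM, Abcc9 was not analysed here, Rgs5 had at most 86 reads, and the contractile genes Acta2, Tagln and Myh11 rose in both genotypes. In RGC-32 KO the Myh11 call was lost under 10 of 19 alternatives and that of Aldh1a2 under 6, and in WT that of Aldh1a2 was lost without control replicate 2 or TGF-β replicate 2. The part of such cells in the LTBP values was not tested.

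The paper identified the isolated cells as astrocytes by GFAP, and the marker sums given here do not measure cell shares. All 10 astrocyte markers were tested. Their summed levels were 4325 to 4557 CPM in WT control against 3440 to 3584 with TGF-β. In RGC-32 KO they were 5017 to 5737 CPM in control against 4252 to 4585 with TGF-β. Slc1a2, a glutamate transporter, was the 1 marker of the 10 that fell, in both genotypes, and its WT call was lost without TGF-β replicate 1. None rose. Other markers differed by amounts under the fold limit at an adjusted p under 0.05 by edgeR. In WT these were Aqp4 (-0.57), Aldoc (-0.52), Slc1a3 (-0.42), Aldh1l1 (-0.36), Sox9 (-0.33) and, upwards, Gja1 (0.35). In RGC-32 KO they were Slc1a3 (-0.48), Sox9 (-0.45), Aqp4 (-0.43), Aldh1l1 (-0.28) and, upwards, Gja1 (0.33). Aqp4 was called lower in WT under 4 of 19 alternatives. Of 7 neuronal markers 4 were tested, with a sum of 278 to 336 CPM in controls and 353 to 395 CPM with TGF-β and a rise of Tubb3 in both genotypes. Rbfox3 and Snap25 had no counts here and at most 0.111 and 0.142 FPKM, and Dcx was not analysed here. Of 8 oligodendrocyte lineage markers 7 were tested, and their sum was 220 to 265 CPM in controls and 373 to 544 CPM with TGF-β. Cspg4, which also marks pericytes, rose by 3.13 in WT and 2.69 in RGC-32 KO on the log2 scale, Pdgfra fell in both, and Mog, with no counts here, had at most 0.0485 FPKM. Of 7 endothelial markers 5 were tested, with a sum of 99.3 to 127 CPM in controls and 66.9 to 80.003 CPM with TGF-β. Flt1 rose and Cdh5 fell in both genotypes, Kdr fell in RGC-32 KO, and Cldn5 and Emcn, with no counts here, had at most 0.0184 and 0.0664 FPKM. The RGC-32 KO calls of Kdr, Flt1 and Cdh5 were lost under 4, 10 and 2 of 19 alternatives.

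The next question was whether the 7 genes differed between WT and RGC-32 KO. Without TGF-β none of them passed the threshold in edgeR, where 0.0074% of all genes were higher in WT and 0.0296% were lower. Only Ltbp2 had an unadjusted p under 0.05 among the 7, by edgeR, DESeq2 and limma-voom alike, and none of these tools called it. With TGF-β none of the 7 passed either, where 0.0222% of all genes were higher and 0.0222% lower. Again Ltbp2 was the 1 gene of the 7 with an unadjusted p under 0.05 by all 3 tools. Over all 13509 genes tested, edgeR gave an unadjusted p under 0.05 for 924 without TGF-β and 1576 with it.

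Ltbp2 was lower in RGC-32 KO than in WT in both conditions by values that did not reach the threshold. The WT libraries lay above the RGC-32 KO libraries without TGF-β (452 and 455 CPM against 278 and 385) and with it (1996 and 2022 CPM against 1350 and 1476). The log2 difference was 0.45 (SE 0.137, unadjusted p = 0.0113, adjusted p = 0.5995 by edgeR) without TGF-β and 0.51 (SE 0.136, unadjusted p = 0.00604, adjusted p = 0.236) with it. DESeq2 gave an adjusted p of 0.00808 for the latter, at a log2 difference of 0.51 that was under the fold limit. Without TGF-β the difference was 0.24 without RGC-32 KO control replicate 1 and 0.70 without replicate 2. The summed fibroblast markers were also lower in RGC-32 KO than in WT in both conditions, as given above, but the single markers differed. Over the 11 tested, the log2 difference, WT minus RGC-32 KO, ran from -0.30 for Aldh1a2 to 0.60 for Col1a2 without TGF-β. With TGF-β it ran from -0.11 to 0.58 for the same genes. The medians were 0.26 and 0.25, and none of the markers passed the threshold. Ogn and Islr had 0.39 and 0.26 without TGF-β and 0.04 and 0.03 with it. The summed astrocyte markers went the other way, being higher in RGC-32 KO than in WT in both conditions. Over the 10 astrocyte markers the log2 difference ran from -0.46 for Gfap to 0.02 for Gja1 without TGF-β. With TGF-β it ran from -0.57 to 0.03 for the same genes. The medians were -0.21 in both conditions, and none of the 10 passed the threshold. The part of these markers in the Ltbp2 difference was not tested.

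The other 6 genes differed less. Without TGF-β their log2 differences, WT minus RGC-32 KO, ran from -0.05 for Ltbp1 to 0.12 for Tgfb3. With TGF-β they ran from 0.06 for Tgfb2 to 0.28 for Ltbp4. The 95% confidence intervals were narrowest for Tgfb2, at -0.05 to 0.27 without TGF-β and -0.10 to 0.23 with it, and for Tgfb3, at -0.04 to 0.29 and -0.09 to 0.24. They were wide for Tgfb1, at -0.45 to 0.61 without TGF-β and -0.36 to 0.66 with it, and for Ltbp1, at -0.58 to 0.49 and -0.21 to 0.71. The intervals of Tgfb1 in both conditions, and of Ltbp1 and Ltbp4 (-0.10 to 0.65) with TGF-β, held a log2 difference of 0.6, so these 2 libraries a group do not show that a difference of that size is absent.

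The TGF-β responses of WT and RGC-32 KO were compared by the interaction of genotype and TGF-β. By edgeR the adjusted p was under 0.05 for 0 of the 7, as for 0% of all genes. At an unadjusted p under 0.05 the number was also 0 of the 7, by edgeR, DESeq2 and limma-voom. Over all genes the unadjusted p was under 0.05 for 381 by edgeR, 76 by DESeq2 and 368 by limma-voom. The largest interaction was that of Ltbp1, whose response was larger in WT by 0.30 on the log2 scale (95% confidence interval -0.41 to 1.01). Ltbp4 followed with 0.24 (-0.29 to 0.78), and the other 5 lay between -0.05 and 0.10. For Ltbp2 the interval of the difference was -0.39 to 0.50, for Tgfb1 -0.67 to 0.81, for Ltbp3 -0.18 to 0.37, for Tgfb2 -0.27 to 0.19 and for Tgfb3 -0.28 to 0.19. For Tgfb2, Tgfb3, Ltbp2 and Ltbp3 the interval did not reach 0.6 in either direction. For Ltbp1 and Ltbp4 it did so on the side of a larger WT response, and for Tgfb1 on both sides.

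Genes that make or release active TGF-β from its latent complex formed a list of 17, of which 16 were tested and Itgb6, with no counts here, had at most 0.0163 FPKM. In WT 9 rose and 1 fell, with a median log2 fold change of 0.65, and in RGC-32 KO 8 rose and none fell, with a median of 0.68. The genes called were not all the same. Itgb1 and Bmp1 were called up in WT alone, at 0.64 and 0.61 against 0.59 and 0.46 in RGC-32 KO. Their WT calls were lost under 5 and 6 of 19 alternatives. Mmp9 was called up in RGC-32 KO alone, at 1.03 against 0.65 in WT. That call was lost under 2 of 19 alternatives, and WT gained it under 2 of 19. Itgb3, an integrin subunit that with the αv chain can bind latent TGF-β, rose by 2.11 (SE 0.166) in WT and 2.05 (SE 0.169) in RGC-32 KO. Mmp14 and Mmp2, a membrane-bound and a secreted matrix protease, rose by 1.27 and 1.08 in WT and by 1.15 and 1.05 in RGC-32 KO. Nrros, which tethers latent TGF-β on microglia, fell by 0.72 in WT (adjusted p = 0.0279 by edgeR), a call lost without WT control replicate 1 or either WT TGF-β library, and had -0.58 (adjusted p = 0.0658) in RGC-32 KO.

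Matrix partners of the LTBPs, a list of 14 with all tested, had 10 rises and 1 fall in WT and 10 rises and no fall in RGC-32 KO, with medians of 1.22 and 1.25. Adamtsl2, a secreted protein that binds LTBP1 and fibrillin, had the largest rise, by 3.998 (SE 0.208) in WT and 4.45 (SE 0.210) in RGC-32 KO. Fbln2, a matrix protein that binds fibronectin and fibrillin, rose by 2.48 in WT and 2.15 in RGC-32 KO. Eln, which encodes elastin, rose by 3.36 in WT (SE 1.03, adjusted p = 0.0404 by edgeR) while the RGC-32 KO value was 3.13 (SE 1.03, adjusted p = 0.0549). The WT call of Eln was lost under 7 of 19 alternatives, and RGC-32 KO gained it under 9 of 19, DESeq2 and limma-voom among them. Dcn, a proteoglycan that binds TGF-β, fell by 0.62 in WT, a call lost without WT control replicate 2 or WT TGF-β replicate 2, and had -0.36 in RGC-32 KO.

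Receptors changed less, with 1 of 7 up and 1 of 7 down in each genotype and medians of 0.22 and 0.25. Eng, the co-receptor endoglin, rose by 0.91 in WT and 0.85 in RGC-32 KO. Its call was lost on FPKM with a pseudocount of 1 in both genotypes, and in RGC-32 KO without control replicate 2 or TGF-β replicate 2. Tgfbr3, the co-receptor betaglycan that presents TGF-β2, fell by 1.15 in WT and by 1.31 in RGC-32 KO. The signalling receptors Tgfbr1 and Tgfbr2 had 0.47 and 0.21 in WT and 0.27 and 0.09 in RGC-32 KO, under the fold limit.

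Canonical targets and feedback genes, a list of 12 with all tested, had 7 rises in WT and 6 in RGC-32 KO and no falls, with medians of 0.67 and 0.61. Smurf1 was called in WT alone, at 0.66 against 0.58 in RGC-32 KO, a call lost under 4 of 19 alternatives. Pmepa1, which dampens SMAD signalling, rose by 2.63 in WT and 2.65 in RGC-32 KO, and Ccn2, a matricellular growth factor, by 1.75 and 1.87. Between WT and RGC-32 KO, 0 of the 49 tested genes of the 4 lists passed the threshold by edgeR or limma-voom, without or with TGF-β. By edgeR 12 of the 49 had an unadjusted p under 0.05 in each condition. Over all 13509 genes tested that number was 924 without TGF-β and 1576 with it. By DESeq2, 3 matrix partners were past the threshold with TGF-β, all higher in WT. Of the 11775 genes to which DESeq2 then gave an adjusted p, it called 0.187% higher in WT and 0.0934% lower. Without TGF-β it called 1, Fbn2, higher in WT, where it called 0.0672% of 10424 such genes higher and 0.0576% lower. With TGF-β the edgeR log2 difference was 1.20 for Fbn2 (adjusted p = 0.0721; DESeq2 1.15e-08), 0.72 for Fbn1 (adjusted p = 0.0864; DESeq2 4.75e-07) and 0.84 for Fbln2 (adjusted p = 0.161; DESeq2 2.90e-05). Fibrillins, the products of Fbn1 and Fbn2, form the microfibrils to which LTBPs bind. In the interaction 0 of the 49 passed by any of these 3 tools, and 1 had an unadjusted p under 0.05, where edgeR gave 381 over all genes. The plot of the 4 lists sets the 7 genes beside them.

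**Figure D4:**
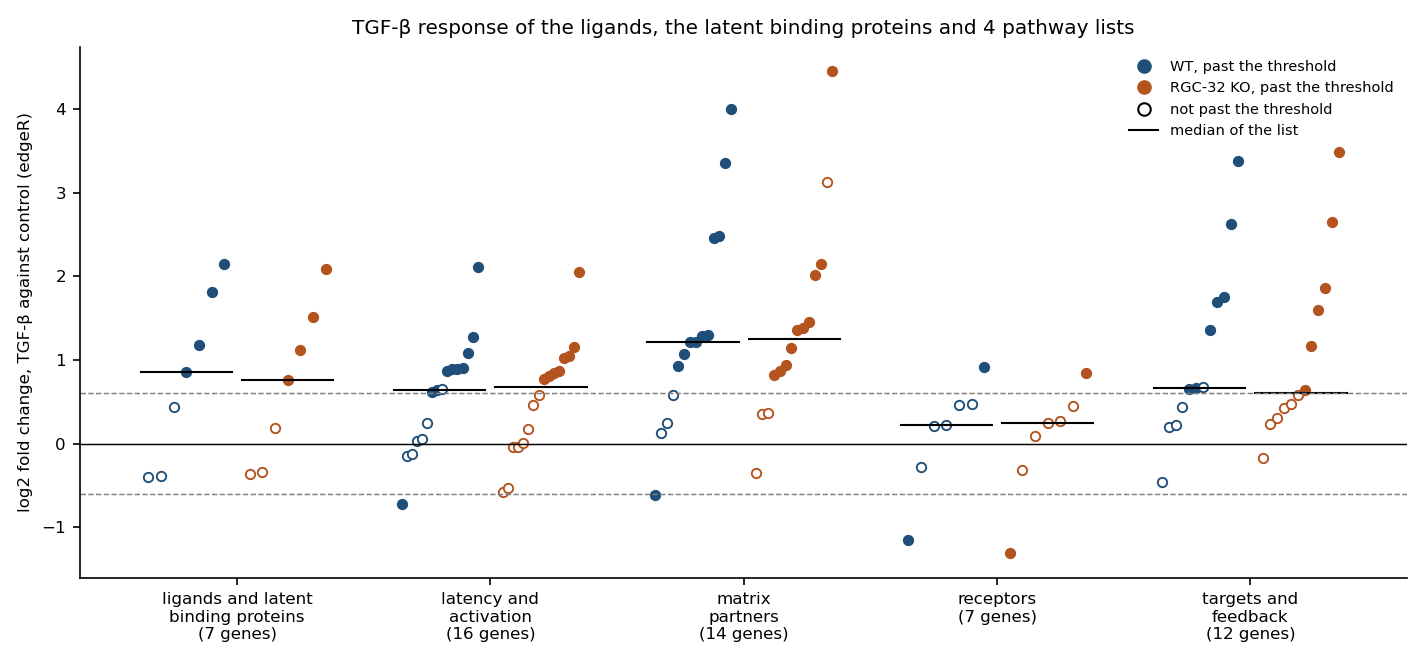
Log2 fold changes of TGF-β against control from edgeR for the 7 genes and for 4 pathway lists, with 1 point per gene, filled where past the threshold, WT to the left and RGC-32 KO to the right in each column, bars at list medians and dashed lines at a log2 of 0.6 in either direction. The ligands and latent binding proteins ranged from -0.40 to 2.15 in WT, and the largest values lay among the matrix partners, at 3.998 in WT and 4.45 in RGC-32 KO for Adamtsl2.

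The genes whose pattern over the 8 libraries was most like each of the 7 were taken as the 2 with the smallest root mean square difference of centred log2 CPM. For Tgfb1 they were Rnf149 (0.0895) and Ifi30 (0.0904), and for Ltbp1 Fam210b (0.110) was one of them. For Ltbp2 they were D030025P21Rik (0.132) and Bmper (0.150), the least close of the 7. For Tgfb2 they were Abcc5 (0.0503) and Itgb3bp (0.0504), and for Tgfb3 Snx2 (0.0364) and Arhgef39 (0.0421). For Ltbp4 they were Ankrd13b (0.0765) and Nos1ap (0.0777), and for Ltbp3 Golt1b (0.0468) and, closer, an entry whose symbol the count table holds as a date (0.0446).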

How the data were processed

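RNA from 8 astrocyte cultures was sequenced without strand information. Whole-number read counts per gene were deposited by the authors, not normalized, after alignment with STAR in the VIPER pipeline. FPKM values for 18644 genes were also deposited by the authors and are ascribed here to Cufflinks, which the submitters' processing notes name together with the mm10 build. The program that counted the reads is not given in the sources used here. The authors' tables of their own comparisons hold fold changes and p-values and were not used.

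The main test was edgeR 4.0.16 (R 4.3.3), while DESeq2 1.42.0 and limma 3.58.1 gave alternatives. The filter was filterByExpr, the scaling TMM, and a single quasi-likelihood fit with 4 group means took in 8 libraries and 13509 genes, with Benjamini-Hochberg adjustment over all of them. The SE was derived from the test statistic. The method was tested on simulated counts. FPKM served for levels between genes and, as log2(FPKM + 1) or log2(FPKM + 0.1) in limma, as an alternative.

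The 7 genes, the pathway and marker lists and the tests were chosen with earlier results of these data known. Named were all 7 genes, in each pathway list the 3 largest rises and 3 largest falls in WT among genes past the threshold and any gene not tested, the 2 genes most alike to each of the 7, and cell type markers at or near 0. Some genes that this rule or the lists take in are not reported here. Other cell type markers, Fbn1, Fbn2, Tgfbr1, Tgfbr2, Itgb1, Bmp1, Mmp9 and Smurf1 were named after their values were seen. Ccn2 was matched through the older symbol CTGF. Alternatives were DESeq2, limma-voom, RLE or upper quartile scaling, no filter, at least 10 counts in every library, 4 libraries alone, a replicate block, no fold limit, FPKM and leaving out each library.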

Additional observations from a re-analysis of the deposited data

How the results depend on the processing

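Tgfb1, Ltbp1, Ltbp2 and Ltbp3 in WT stayed past the threshold under all alternatives run, and Ltbp1 and Ltbp2 did so in RGC-32 KO. The number of the 7 genes past it was 4 to 6 in WT and 3 to 6 in RGC-32 KO, the highest with no fold limit, and 0 between genotypes and in the interaction throughout. With the replicate number as a block it was 4 in each genotype, and the block changed no call among the 7, while among the listed genes of RGC-32 KO named here it ended those of Aldh1a2, Flt1 and Myh11 and brought Eln past the threshold. Same-numbered samples did not deviate together in every pair of groups. The correlation was -0.34 between control and TGF-β in WT and -0.35 in RGC-32 KO. It was -0.51 between WT TGF-β and RGC-32 KO control and -0.48 between WT control and RGC-32 KO TGF-β. Between the controls it was 0.49, and between the TGF-β groups 0.25. All pairs of a control and a TGF-β group were thus negative, and both pairs of the same treatment positive. The block moved the calls over all genes from 1043 up and 763 down to 957 and 659 in WT, and pairing the numbers crosswise, an alternative chosen after seeing the data, gave 1167 and 938. Over all genes the WT calls were 519 up and 586 down on FPKM with a pseudocount of 1, and 714 and 486 without WT TGF-β replicate 2. Between genotypes, edgeR's 1 up and 4 down without TGF-β became 7 and 6 by DESeq2, and its 3 and 3 with TGF-β became 22 and 11.

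Upper quartile scaling lowered the share of calls that were rises in WT from 57.8% to 44.8% (RGC-32 KO, 57.3% to 45.5%), and FPKM with a pseudocount of 0.1 to 37.9% and 36.1%, with the median of all genes at -0.13 in both. No direction among the 7 genes flipped for TGF-β against control. The WT against RGC-32 KO difference of Tgfb2 with TGF-β turned to -0.0146 and -0.0159 on FPKM with a pseudocount of 1 and 0.1, from 0.06.

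Leaving out single libraries turned the sign of several differences that no test had called. Without TGF-β the range, WT minus RGC-32 KO, was -0.25 to 0.35 for Tgfb1, -0.29 to 0.23 for Ltbp1, -0.0704 to 0.0080 for Ltbp3 and -0.0651 to 0.14 for Ltbp4. With TGF-β it was -0.0432 to 0.37 for Tgfb1, -0.0447 to 0.17 for Ltbp3 and -0.0262 to 0.54 for Ltbp4. For the interaction it was -0.20 to 0.39 for Tgfb1, -0.10 to 0.0266 for Tgfb2, -0.12 to 0.0268 for Tgfb3, -0.20 to 0.27 for Ltbp2, -0.0074 to 0.21 for Ltbp3 and -0.0572 to 0.51 for Ltbp4. The cause was not tested. Where a group kept 1 library, that library was assumed to vary like the others.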
